A study of Macaca fascicularis with 86 samples.

Results

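The expression table was read at 8 rows across every captured region: the Notch ligands DLL1, DLL3 and JAG1, the receptors NOTCH1, NOTCH2 and NOTCH3, and the transcriptional targets HES1 and HEY1. They were chosen by name, as 8 of the 17023 genes in the table, and all 8 passed the filter on low values, which kept 15216 genes that reached 1 TPM (a transcript abundance scaled to length and library) in 10 or more regions. The regions came from 3 gastrulating embryos of the crab-eating macaque, Macaca fascicularis, cut frozen and microdissected with a laser, with 5 to 50 cells in a region per the series' design text. Each region was sequenced as its own polyA library by Geo-seq, a spatial method that keeps the place of each sample. The E20 group was 1 embryo with 36 regions over 7 sections, and the E18 group was 2 embryos, with 15 regions over 4 sections (embryo 1) and 35 regions over 6 sections (embryo 2). The labels give no genotype or treatment for any embryo, number sections and sectors without naming a direction, and give embryonic day as the age.

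Notch is a receptor that is switched on by a ligand on a neighbouring cell. Ligand binding leads to cleavage of the receptor, and its intracellular part enters the nucleus, joins the DNA-binding protein RBPJ and a Mastermind coactivator, and turns on repressor genes of the HES and HEY families. In vertebrate gastrulation the pathway is known for its part in the paraxial mesoderm, where DLL1 and DLL3 mark cells that will form somites, and for its part in arteries and heart, where JAG1, NOTCH1 and HEY genes act. DLL3 is a divergent family member that in mouse does not activate Notch on neighbouring cells.

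The regions were not alike in tissue. The 28 regions of E20 sections 1 to 5 carried yolk sac endoderm and mesenchyme RNA: the carrier protein gene TTR had a median of 1248 TPM and the stromal proteoglycan gene LUM a median of 1223 TPM, while the epiblast factor SOX2 was listed at 0 in 24 of 28 and the streak factor TBXT in 28 of 28. In the 8 regions of E20 sections 6 and 7, SOX2 had a median of 31.98 TPM and TTR one of 0.160 TPM; SOX2 medians in the E18 embryos were 24.1 TPM (embryo 1) and 32.7 TPM (embryo 2). Genes that reached 1 TPM numbered 6194 to 10950 per region in the E20 embryo, 7815 to 11516 in E18 embryo 1 and 11091 to 13958 in E18 embryo 2, and read depth is unknown because TPM keeps no counts. Within the E20 embryo the median was 8451.5 genes in sections 1 to 5 (lowest 6194) and 10522.5 in sections 6 and 7 (lowest 10046). The part of this lower detection in the low member values of sections 1 to 5 was not tested. Mitochondrially encoded genes held a median of 17.5% of summed TPM in the E20 embryo, against 15.7% and 29.4% in the E18 embryos, and the members called for the stage were 2 with and without those genes. There were 3 E18 embryo 1 regions that also held trophoblast markers: the hormone subunit gene CGA was at 1745 TPM in section 1 sector 1, 4737 TPM in section 2 sector 1 and 1683 TPM in section 3 sector 5, and the last also had the natural killer cell gene GNLY at 2701 TPM. Trophoblast markers were not limited to them: their summed level was 1677 TPM in E20 section 2 sector 5 and had a median of 464 TPM over E20 sections 1 to 5. The fits over all embryos, the section slopes of each embryo and the correlations were repeated without the 3 E18 embryo 1 regions, and values are given where a call of a member changed. Each region is a bulk sample, so fewer cells of a type and less RNA per cell cannot be told apart.

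TPM is a value per transcript length, so levels can be set side by side between genes. Over 86 regions the median was highest for NOTCH3 (9.91 TPM) and NOTCH2 (9.57 TPM), then HES1 (8.38 TPM), JAG1 (7.79 TPM), HEY1 (5.83 TPM), DLL3 (5.02 TPM), DLL1 (2.19 TPM) and NOTCH1 (0.494 TPM). By mean the order differed: HEY1 led with 26.9 TPM and DLL3 followed with 19.6 TPM. Both had a few very high regions, and the 2 highest HEY1 regions alone held 11.2% and 7.09% of its summed TPM.

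Among the ligands, DLL1 was measured in most regions outside E20 sections 1 to 5 and was nearly missing from those. It was listed at 0 in 26 of 28 regions of E20 sections 1 to 5, where the highest value was 3.37 TPM in section 2 sector 5, the region of that embryo with most trophoblast RNA, against a range of 0.174 to 18.7 TPM (median 6.07) in the 8 regions of E20 sections 6 and 7. In E18 embryo 1 it ranged from 0 to 72.2 TPM (median 2.62), and in E18 embryo 2 from 0 to 19.8 TPM (median 3.66). The 3 highest DLL1 regions were all sectors of E18 embryo 1: section 2 sector 1 (72.2 TPM), section 1 sector 1 (47.7 TPM) and section 4 sector 4 (28.8 TPM). Across the widest gap in that embryo these 3 stood above a next value of 6.44 TPM. All 3 had the amnion and lateral mesoderm factor ISL1 at 43.0 to 59.7 TPM, LUM at 57.8 to 439 TPM and TBXT at 0, and the first 2 are among the regions with trophoblast RNA. In the same order, SOX2 was at 135, 7.75 and 31.7 TPM and the endothelial gene PECAM1 at 85.7, 3.55 and 59.3 TPM, so the regions were mixed. High ISL1 and LUM did not always go with DLL1. Section 3 sector 1 of the same embryo had ISL1 at 54.5 TPM, LUM at 388 TPM and TBXT at 0, with DLL1 listed at 0. The fourth highest DLL1 region, section 5 sector 6 of E18 embryo 2 (19.8 TPM), had instead TBXT at 173 TPM, the mesoderm factor MESP1 at 139 TPM and ISL1 at 5.05 TPM.

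DLL3 reached higher levels than DLL1. It was at 1 TPM or more in 6 of 28 regions of E20 sections 1 to 5 (highest 5.17 TPM) and in 7 of 8 regions of sections 6 and 7 (0.599 to 153 TPM, median 3.96). E18 embryo 1 ranged from 0 to 83.0 TPM (median 16.8) and E18 embryo 2 from 0.846 to 158 TPM (median 12.9). The highest values were in section 5 sector 6 of E18 embryo 2 (158 TPM) and section 7 sector 3 of the E20 embryo (153 TPM). Both regions had high mesoderm factors: TBXT was at 173 and 63.9 TPM and MESP1 at 139 and 98.8 TPM. In the E20 embryo that single region was far above all others, with the next DLL3 value at 25.95 TPM.

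JAG1, by contrast, reached 1 TPM in 23 of 28 regions of E20 sections 1 to 5 and in 57 of 58 regions outside them. Its range was 0 to 43.1 TPM in E20 sections 1 to 5 (median 8.61), 0.950 to 10.5 TPM in E20 sections 6 and 7 (median 2.51), 1.01 to 25.1 TPM in E18 embryo 1 (median 3.51) and 3.86 to 36.1 TPM in E18 embryo 2 (median 10.1). Its highest region, E20 section 2 sector 3 (43.1 TPM), had TTR at 1327 TPM, LUM at 954 TPM and the endothelial adhesion gene PECAM1 at 58.9 TPM. Its summed trophoblast markers (1015 TPM) and decidual and immune markers (245 TPM) were also high, and their part in the JAG1 level was not tested. The groups overlapped throughout.

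Of the receptors, NOTCH2 was at a TPM of at least 1 in 86 of 86 regions, the only one of the 8 members to be so. It ranged from 1.14 to 26.4 TPM in E20 sections 1 to 5, 1.57 to 35.7 TPM in E20 sections 6 and 7, 4.14 to 21.5 TPM in E18 embryo 1 and 3.57 to 38.8 TPM in E18 embryo 2. NOTCH3 reached 1 TPM in 58 of 58 regions outside E20 sections 1 to 5 and in 12 of 28 within them: E20 sections 1 to 5 ranged from 0 to 5.82 TPM (median 0.189), E20 sections 6 and 7 from 4.62 to 18.9 TPM (median 9.91), E18 embryo 1 from 6.70 to 26.1 TPM (median 14.3) and E18 embryo 2 from 5.97 to 38.5 TPM (median 15.1). The highest NOTCH3 value of E20 sections 1 to 5 (5.82 TPM) was thus only just under the lowest E18 value (5.97 TPM). How many other genes were apart in this way was not counted. NOTCH1 was low everywhere. Its highest value was 4.73 TPM, it was listed at 0 in 22 of 28 regions of E20 sections 1 to 5, and it reached a TPM of 1 in 2 of 8 regions of E20 sections 6 and 7, 3 of 15 of E18 embryo 1 and 25 of 35 of E18 embryo 2.

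The targets behaved differently from each other. HES1 was above 0 in every region, from 0.799 to 10.8 TPM (median 2.60) in E20 sections 1 to 5, 5.32 to 21.9 TPM (median 12.4) in E20 sections 6 and 7, 2.43 to 30.2 TPM (median 9.24) in E18 embryo 1 and 2.94 to 46.7 TPM (median 11.1) in E18 embryo 2. HEY1 split into high and low regions. In E18 embryo 1, 4 of 15 regions were at 58.1 TPM or more and the next was at 7.25 TPM. In E18 embryo 2, 12 of 35 were at 51.7 TPM or more and the next was at 16.2 TPM. Sector 4 of E20 sections 7 and 6 held the highest 2 values of all, 260 and 164 TPM, and E20 sections 1 to 5 spanned 0 to 52.1 TPM (median 4.96).

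**Figure D1:**
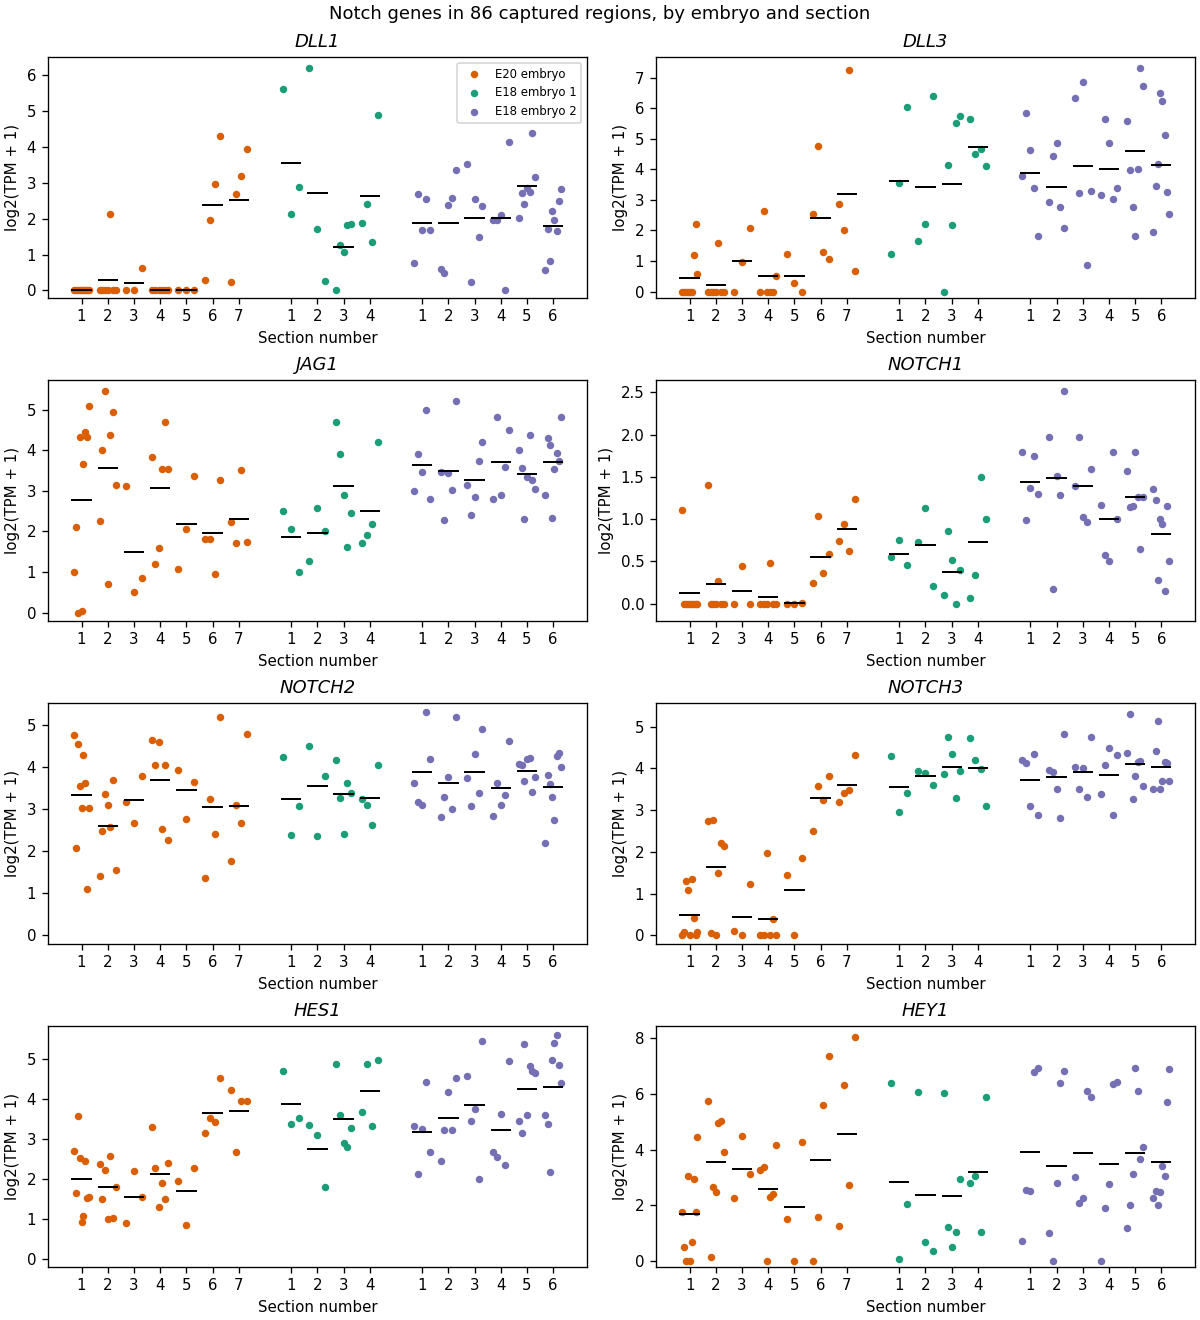
Level of each gene, log2(TPM + 1), in 86 regions (points), grouped by section number within the E20 embryo (left) and the 2 E18 embryos; black lines are section means. DLL1, DLL3, NOTCH3 and HES1 are low in E20 sections 1 to 5 and higher in sections 6 and 7, where the DLL3 means of 2.42 and 3.21 remain below every E18 section mean, and HEY1 splits into high and low regions within sections.

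The first comparison asked how levels differed between the stages. DLL3 and NOTCH3 were lower in the E20 embryo. With 1 E20 embryo the test holds no spread between E20 embryos. Its error is the difference between the 2 E18 embryos as limma fitted it over all genes of a like level. A gene's own spread had no weight, because the prior degrees of freedom were infinite. Between the E18 embryos DLL3 differed by 0.24 and NOTCH3 by 0.04, so the SE below does not measure their own spread. On the log2(TPM + 1) scale, which understates the change of low genes, DLL3 averaged 0.99 in the E20 embryo, against 3.84 and 4.08 in the E18 embryos, a difference of -2.97 ± 0.61 (SE; adjusted p = 5.88e-05, limma on embryo means). NOTCH3 averaged 1.395 in the E20 embryo, against 3.89 and 3.93 in the E18 embryos, a difference of -2.51 ± 0.59 (adjusted p = 0.000725). These 2 of 8 members were called, both lower, beside 11.4% of all genes called in either direction, 2.64% higher and 8.75% lower. The members' median difference was -1.02, against -0.44 over all genes tested. HES1 had a difference of -1.42 ± 0.57 (adjusted p = 0.0924) and DLL1 one of -1.61 ± 0.80 (adjusted p = 0.204). JAG1, NOTCH1, NOTCH2 and HEY1 lay between -0.63 and -0.28, with adjusted p of 0.769 to 0.853.

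Without E20 sections 1 to 5, an alternative chosen after seeing the data, the difference was -1.15 for DLL3 and -0.46 for NOTCH3 and limma called 0 members (adjusted p = 1 for each). With the median over regions in place of the mean, limma also called 0 members (DLL3 -3.84 and NOTCH3 -2.71, adjusted p = 0.374). Taken alone, E20 section 6 gave -1.54 for DLL3 and -0.62 for NOTCH3, and section 7 gave -0.75 and -0.31. DLL1 was at 2.45 on the log2 scale in E20 sections 6 and 7 and HES1 at 3.67, against 2.18 and 3.73 over the 50 E18 regions. With 1 E20 embryo, stage, embryo and the tissue captured cannot be told apart.

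**Figure D2:**
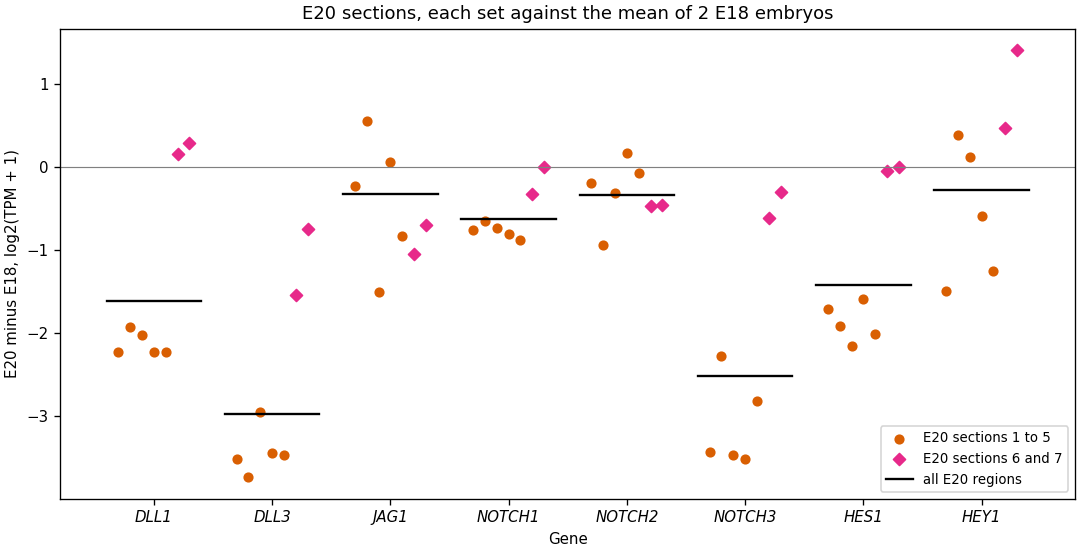
Difference in log2(TPM + 1) between each E20 section and the mean of the 2 E18 embryos (points; circles for sections 1 to 5, diamonds for 6 and 7), with the difference over all E20 regions as a black line. For DLL1, DLL3, NOTCH3 and HES1 the diamonds lie nearer to 0 than every circle, for DLL3 at -1.54 and -0.75.

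The next comparison followed section number. In the fit with embryo as a block, DLL3 rose by 1.44 ± 0.48 from the first to the last section (SE; adjusted p = 0.0379), NOTCH3 by 1.25 ± 0.29 (adjusted p = 0.0028) and HES1 by 1.24 ± 0.29 (adjusted p = 0.00303), all in log2 units and by limma over single regions. These 3 of 8 members stand beside 10.7% of all genes called (8.81% higher, 1.89% lower), and the members' median slope was 0.77 against 0.11 over all genes. In the E20 embryo the NOTCH3 slope was 2.52, against 0.47 and 0.33 in the E18 embryos, and the slopes differed between embryos (F = 7.74, adjusted p = 0.0151, limma). DLL1 had slopes of 2.22 in the E20 embryo and of -1.24 and 0.30 in the E18 embryos (F = 6.40, adjusted p = 0.0325). Without E20 sections 1 to 5, limma called 0 members, with slopes of 0.82 for DLL3, 0.38 for NOTCH3 and 0.93 for HES1, and with the 3 embryo slopes as units it called 0 of 15216 genes (638 at an unadjusted p under 0.05). Without the 3 regions with trophoblast RNA, DLL3 did not pass (1.27, adjusted p = 0.0745) and DLL1 did (1.14, adjusted p = 0.0211), and the DLL1 slope in E18 embryo 1 was 0.46, with no call for a difference between embryos (F = 3.92, adjusted p = 0.137). Adding genes detected per region as a covariate, DLL3 did not pass either (1.18, adjusted p = 0.155).

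A test for any difference among sections within embryos called DLL1 (F = 3.04, adjusted p = 0.0119), NOTCH3 (F = 6.63, adjusted p = 1.65e-06) and HES1 (F = 2.87, adjusted p = 0.0187), 3 of 8 members beside 12% of all genes. Ordered by section mean over 17 sections, NOTCH3 ran from 4.10 (E18 embryo 2 section 5) to 0.39 (E20 section 4), and DLL1 from 3.55 (E18 embryo 1 section 1) to 0.00 (E20 sections 1, 4 and 5). HEY1 was highest in E20 section 7 (4.57) and lowest in E20 section 1 (1.69). Neighbours in these orders differed by more than the spread within them in 1 of 16 pairs for DLL1 and NOTCH3 and in 0 of 16 for the other 6 genes. Without E20 sections 1 to 5, limma called 0 of the 8. Without the 3 regions with trophoblast RNA, DLL1 had F = 3.67 (adjusted p = 0.0025).

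Along sector numbers within sections, 1 of 8 members was called, beside 3.24% of all genes (2.48% higher, 0.762% lower). HEY1 rose by 2.67 ± 0.60 from the first to the last sector (SE; adjusted p = 0.00666, limma). Its slope was 2.81 in the E20 embryo, against -2.46 in E18 embryo 1 and 5.24 in E18 embryo 2, so the direction was not common to the embryos (F for the difference = 14.8, adjusted p = 0.00367). The high HEY1 regions were sector 1 of sections 1 to 3 and sector 4 of section 4 in E18 embryo 1, while in E18 embryo 2 they were sectors 4 and 5 of sections 1 to 5 and sectors 7 and 8 of section 6. The call was lost without E18 embryo 2 (slope 1.10, adjusted p = 0.788) and without the E20 embryo (2.58, adjusted p = 0.0787). Without the 3 regions with trophoblast RNA, HEY1 had 3.48 (adjusted p = 0.000114) and DLL1 was also called, at 1.23 (adjusted p = 0.0027).

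To place the genes by tissue rather than by number, each region was given a score for 7 lists of cell type markers (the mean of the markers' standardised log2 levels within its embryo), and each gene was regressed on each score with embryo as a block. DLL3 followed the primitive streak score, built from factors such as TBXT, EOMES and MIXL1, more steeply than any other member, rising by 1.29 ± 0.11 log2 units per SD of the score (SE; adjusted p = 6.12e-16, limma). The slope was alike in each embryo: 1.33 in the E20 embryo, against 1.33 and 1.23 in the E18 embryos. NOTCH3 (0.38 ± 0.10, adjusted p = 0.00437) and HES1 (0.38 ± 0.10, adjusted p = 0.00378) also rose with the streak score. These 3 of 8 members stand beside 24.6% of all genes called (19.3% higher, 5.24% lower). DLL1 had a slope of 0.34 ± 0.13 (adjusted p = 0.0503), and 0.46 (adjusted p = 0.00239) without the 3 E18 embryo 1 regions with trophoblast RNA. With embryo slopes as the units DLL3 alone of the members passed (limma, adjusted p = 0.0256), beside 65 of 15199 genes. Without E20 sections 1 to 5 the slopes of NOTCH3 (0.09) and HES1 (0.23) did not pass. Outside those sections, the highest HES1 region of a section had the highest streak score in 1 of 12 sections, and so for NOTCH3. Within them this held in 0 of 5 for HES1 and 1 of 5 for NOTCH3.

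The nascent and paraxial mesoderm score, built from factors such as MESP1, TBX6 and MSGN1, was the one that DLL1 and DLL3 shared. DLL3 rose by 1.30 ± 0.11 per SD (SE; adjusted p = 1.93e-15) and DLL1 by 0.66 ± 0.12 (adjusted p = 4.32e-05, limma), or 0.67 without the 3 regions with trophoblast RNA. DLL1 slopes were 0.73 in the E20 embryo, against 0.29 and 0.69 in the E18 embryos, and DLL3 slopes 1.23 in the E20 embryo, against 1.37 in each E18 embryo. HES1 (0.43 ± 0.10, adjusted p = 0.00175) and NOTCH3 (0.40 ± 0.10, adjusted p = 0.00478) rose too, so that 4 of 8 members were called beside 16.8% of all genes (15.1% higher, 1.69% lower). Within a section the highest DLL3 region was also the one with the highest mesoderm score in 9 of 12 sections outside E20 sections 1 to 5 and in 2 of 5 within them. For DLL1 this held in 4 of 12 sections, and in 2 of the 2 sections of E20 sections 1 to 5 where it was above 0. For HES1 it held in 0 of 12 and 1 of 5 sections, and for NOTCH3 in 0 of 12 and 2 of 5. The streak and mesoderm scores went together across regions (r = 0.74, n = 86). With both scores in a fit, DLL3 kept a slope on each (0.73 on streak and 0.75 on mesoderm, adjusted p = 0.000219 and 0.000812), while DLL1 had 0.91 on mesoderm (adjusted p = 0.000536) and -0.34 on streak (adjusted p = 0.251). Sector 3 of E20 section 7 had the highest mesoderm score of the E20 embryo, and without it DLL3 had 1.11 and DLL1 0.65, both still called. Scores are set within an embryo: the summed mesoderm list reached 366 TPM in the E20 embryo, against 451 and 810 TPM in the E18 embryos. With embryo slopes as units DLL3 gave an adjusted p of 0.114 and DLL1 one of 0.436, and without E20 sections 1 to 5 the slopes of HES1 (0.29) and NOTCH3 (0.06) did not pass. Those of HES1 (0.32) and NOTCH3 (0.05) did not pass without the whole E20 embryo either.

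**Figure D3:**
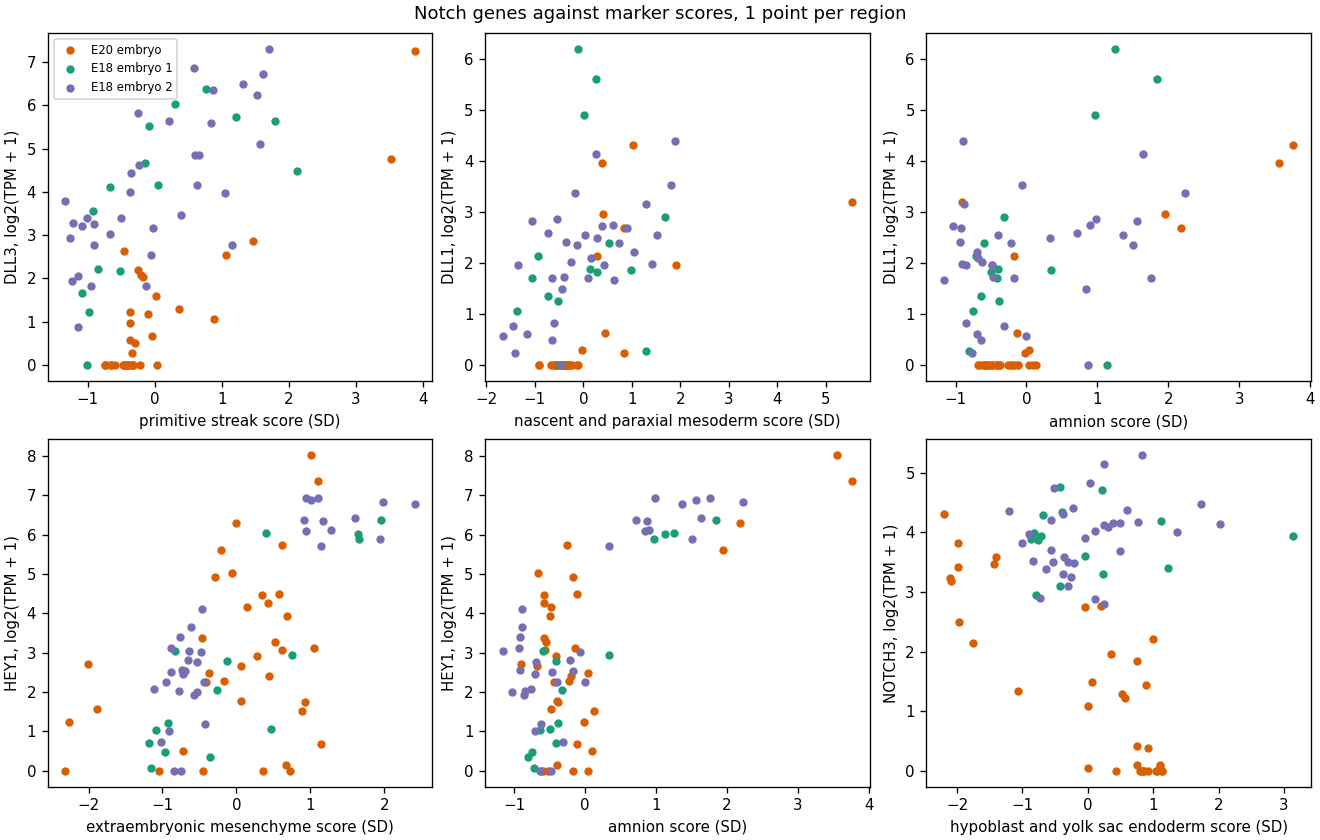
Level of a gene, log2(TPM + 1), against a marker score in SD units, with 1 point for each of 86 regions coloured by embryo. DLL3 climbs with the streak score at slopes of 1.33, 1.33 and 1.23 in the 3 embryos, HEY1 is high at high amnion scores in every embryo, and the NOTCH3 slope on the yolk sac endoderm score is -0.99 in the E20 embryo, against 0.01 and 0.26 in the E18 embryos.

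HEY1 was highest in regions with amnion and extraembryonic mesenchyme RNA. It rose by 1.63 ± 0.16 per SD of the amnion score (SE; adjusted p = 1.47e-14, limma), which rests on genes such as ISL1, GABRP and VTCN1, with slopes of 1.21 in the E20 embryo, against 2.50 and 1.88 in the E18 embryos. In 11 of 12 sections outside E20 sections 1 to 5 the region with most HEY1 was the one with the highest amnion score, and in 1 of 5 within them. DLL1 rose by 0.71 ± 0.12 (adjusted p = 1.14e-06) and by 0.59 (adjusted p = 2.41e-05) without the 3 regions with trophoblast RNA. DLL1 thus rose with both the amnion and the mesoderm score, scores that were almost unrelated across regions (r = -0.00567, n = 86). Outside E20 sections 1 to 5 its highest region had the highest amnion score in 8 of 12 sections, against 4 of 12 for the mesoderm score. DLL3 fell with the amnion score by 0.56 (SE 0.17, adjusted p = 0.00928). NOTCH1, NOTCH2, NOTCH3 and HES1 had slopes of 0.17 to 0.37 (adjusted p of 0.0012 to 0.0155), so that 7 of 8 members were called beside 19.4% of all genes (13.7% higher, 5.7% lower). The last 4 calls were lost when the 2 regions of the E20 embryo with its highest amnion scores, sector 4 of sections 6 and 7, were left out. That left 3 members called, with HEY1 at 1.41 and DLL1 at 0.51. DLL3 did not pass without E18 embryo 1 (-0.47, adjusted p = 0.0646) or E18 embryo 2 (-0.27, adjusted p = 0.533). With embryo slopes as units HEY1 gave an adjusted p of 0.0661 and limma called 0 of 15201 genes (1789 at an unadjusted p under 0.05).

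With the extraembryonic mesenchyme score (collagens, LUM, HAND1), HEY1 rose by 1.46 ± 0.17 per SD (SE; adjusted p = 2.81e-11), NOTCH2 by 0.52 ± 0.08 (adjusted p = 1.32e-07) and JAG1 by 0.32 ± 0.13 (adjusted p = 0.038), and DLL3 fell by 0.81 (SE 0.16, adjusted p = 1.45e-05, limma). These 4 of 8 members stand beside 33.6% of all genes (15.3% higher, 18.3% lower). NOTCH2 slopes were 0.57 in the E20 embryo, against 0.54 and 0.46 in the E18 embryos, and in 12 of 12 sections outside E20 sections 1 to 5 its highest region was the one with the highest mesenchyme score, and in 2 of 5 within them. HEY1, NOTCH2 and DLL3 also passed with embryo slopes as units (limma, adjusted p = 0.0158, 0.0325 and 0.0247), and JAG1 did not (adjusted p = 0.139). In that test 1619 of 15200 genes passed. JAG1 was also lost without E18 embryo 1 (0.31, adjusted p = 0.0869) or E18 embryo 2 (0.24, adjusted p = 0.446). Mesenchyme and amnion scores were correlated (r = 0.61, n = 86). With both in a fit, HEY1 kept a slope on each (0.75 on mesenchyme and 1.17 on amnion, adjusted p = 0.000503 and 2.74e-07), NOTCH2 kept the one on mesenchyme (0.47, adjusted p = 0.000101, against 0.08 on amnion, adjusted p = 0.613), and DLL1 kept the one on amnion (0.88, adjusted p = 1.16e-06). DLL3 kept the one on mesenchyme (-0.74, adjusted p = 0.00138), against -0.11 on amnion (adjusted p = 0.744). Without E20 sections 1 to 5, DLL1 was also called on the mesenchyme score (0.58, adjusted p = 0.00227, limma) and DLL3 had -1.16 on the amnion score. HES1 and NOTCH3 were not called on the mesenchyme score. Their highest region still had the highest mesenchyme score in 9 of 12 and 7 of 12 sections outside E20 sections 1 to 5. Within those it did in 0 of 5 for HES1 and 3 of 5 for NOTCH3.

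On the endothelium score (PECAM1, CDH5, KDR and others) 2 of 8 members were called, beside 18.1% of all genes (10.7% higher, 7.42% lower). HEY1 rose by 1.33 ± 0.18 (SE; adjusted p = 2.87e-08) and JAG1 by 0.42 ± 0.12 (adjusted p = 0.00917, limma). The endothelium and mesenchyme scores had r = 0.70 (n = 86), and with the mesenchyme score in the fit limma called 0 of 8 members (HEY1 0.60, adjusted p = 0.188; JAG1 0.38, adjusted p = 0.285). Neither passed without E18 embryo 2 (HEY1 0.86, adjusted p = 0.0811; JAG1 0.45, adjusted p = 0.196). Within E20 sections 1 to 5, where CDH5 had a median of 31.03 TPM, the region with most HEY1 had the highest endothelium score in 4 of 5 sections, against 5 of 12 in the other sections.

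**Figure D4:**
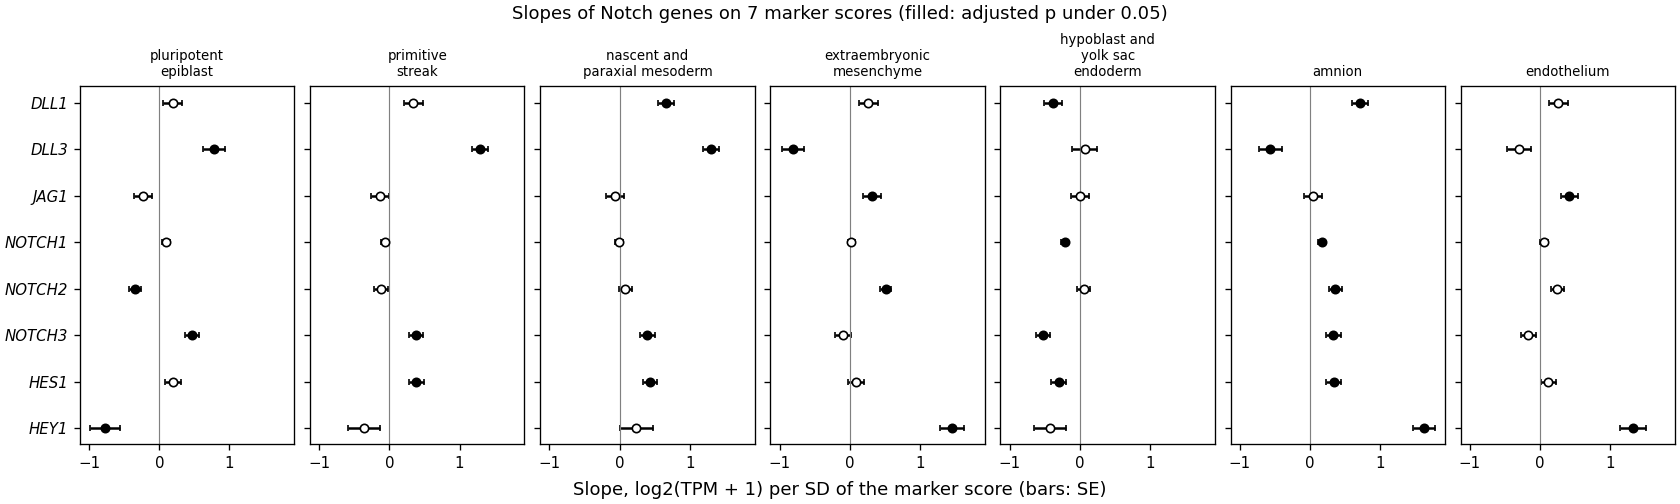
Slope of each gene on 7 marker scores, in log2(TPM + 1) per SD of the score; points are estimates, bars are SE, and filled points have an adjusted p under 0.05. DLL3 has slopes of 1.29 and 1.30 on the streak and mesoderm scores and -0.81 on the mesenchyme score, HEY1 has 1.46 on the mesenchyme score and 1.63 on the amnion score.

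With the pluripotent epiblast score (SOX2, NANOG and others) DLL3 rose by 0.78 ± 0.16 (SE; adjusted p = 3.09e-05) and NOTCH3 by 0.46 ± 0.10 (adjusted p = 8.5e-05), while HEY1 fell by 0.77 (SE 0.22, adjusted p = 0.00245) and NOTCH2 by 0.35 (SE 0.09, adjusted p = 0.000989, limma). These 4 of 8 stand beside 40.8% of all genes (27.5% higher, 13.4% lower). NOTCH3 had a slope of 0.99 in the E20 embryo, against 0.16 and -0.03 in the E18 embryos (F = 16.1, adjusted p = 9.42e-05), and the slope was -0.04 without E20 sections 1 to 5. HEY1 had 0.34 in the E20 embryo, against -1.32 and -1.84 in the E18 embryos (F = 15.2, adjusted p = 0.000153), and its pooled slope was -1.69 without E20 sections 1 to 5 and -0.02 (adjusted p = 0.979) without E18 embryo 2. With the hypoblast and yolk sac endoderm score (apolipoproteins, TTR, SOX17) NOTCH3 fell by 0.52 (SE 0.10, adjusted p = 2.88e-05), DLL1 by 0.38 (SE 0.13, adjusted p = 0.0306), HES1 by 0.30 (SE 0.11, adjusted p = 0.0357) and NOTCH1 by 0.21 (SE 0.05, adjusted p = 0.000924), 4 of 8 beside 19.1% of all genes (8.21% higher, 10.9% lower). Without E20 sections 1 to 5 the slopes of NOTCH3 (0.09), DLL1 (0.03) and HES1 (0.05) turned positive and did not pass, NOTCH1 had -0.17 (adjusted p = 0.154), and DLL3 had 0.90 (adjusted p = 0.00447). Without the 3 regions with trophoblast RNA, DLL1 did not pass (-0.32, adjusted p = 0.0518). DLL3 slopes on this score were -0.57 in the E20 embryo, against 1.05 and 0.92 in the E18 embryos (F = 11.6, adjusted p = 0.00131). Outside E20 sections 1 to 5 the highest DLL3 region had the highest yolk sac endoderm score in 7 of 12 sections. The streak score also gave 7 of 12. Within E20 sections 1 to 5 the 2 scores gave 0 of 5 and 1 of 5.

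Among the 28 pairs of members, with levels centred within embryos over 86 regions that share an embryo within each group, the highest correlations were DLL1 with HEY1 (r = 0.53) and DLL1 with HES1 (r = 0.53). They are descriptions and carry no p. DLL1 and HEY1 had r = 0.60 in the E20 embryo, 0.64 in E18 embryo 1 and 0.40 in E18 embryo 2. Without the 3 regions with trophoblast RNA (n = 83), r was 0.48 for DLL1 with HEY1, with 0.33 in E18 embryo 1, and 0.57 for DLL1 with HES1. NOTCH2 and HEY1 had r = 0.13 in the E20 embryo, against 0.81 and 0.54 in the E18 embryos. The lowest was DLL3 with HEY1 (r = -0.28; 0.02 in the E20 embryo, against -0.51 and -0.44 in the E18 embryos). DLL1 and DLL3 had r = 0.22.

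The genes with a mean of at least 5 TPM whose levels were most like each member's, over the same 86 regions, differed in how close they came. DLL3 was closest to MESP2 (r = 0.78), SP5 (0.76), MIXL1 (0.73) and EOMES (0.73), all transcription factors of the streak or early mesoderm and all in the score lists. HEY1 was closest to MEIS1 (0.80), a homeobox factor, EFNB2 (0.79), an ephrin of arteries, SPNS2 (0.77), a sphingosine-1-phosphate transporter, and GABRP (0.77), which is in the amnion list. NOTCH3 was closest to CSNK1G2 (0.78), a casein kinase, NOTCH2 to B4GALT1 (0.73), a galactosyltransferase, DLL1 to TMEM79 (0.66) and ZNF703 (0.64), HES1 to CPZ (0.64), and NOTCH1 to FRAS1 (0.56). JAG1 had no close companion, its best being the endothelial factor SOX7 (0.46).

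The rest of the pathway was held in 4 lists. Of 10 other ligands, receptors and glycosyltransferases tested, 1 was higher and 1 lower in the E20 embryo (2.64% and 8.75% of all genes): DLK1, an imprinted non-canonical ligand, by 2.08 ± 0.56 (SE; adjusted p = 0.00428), and RFNG, a Fringe glycosyltransferase, by -2.60 ± 0.49 (adjusted p = 1.01e-05, limma). Of 20 tested genes of Notch processing and the nuclear complex, 3 were lower in the E20 embryo, among them the acetyltransferase KAT2A (-2.76 ± 0.45, adjusted p = 1.98e-07), and of 18 inhibitors and feedback genes 3 were lower, including DTX3 (-2.47 ± 0.54, adjusted p = 0.00017), beside 8.75% of all genes lower. Without E20 sections 1 to 5 limma called 0 of these 8 genes (adjusted p = 1 for each), with DLK1 at 1.21, RFNG at -0.07, KAT2A at -0.53 and DTX3 at -0.53. RBPJ had a mean of 27.8 TPM and the Mastermind gene MAML1 one of 10.8 TPM, and HES5 was listed at 0 in every region.

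LFNG, the Fringe of the somite clock, rose with the streak score by 0.81 ± 0.07 (SE; adjusted p = 1.21e-15) and with the mesoderm score by 0.55 ± 0.10 (adjusted p = 3e-05, limma). Of the 10 in its list, 2 rose and 2 fell with the streak score, beside 19.3% and 5.24% of all genes. DLL4, the ligand of arterial endothelium, rose with the endothelium score by 0.74 ± 0.11 (adjusted p = 2.95e-07), as did DLK1 (0.75 ± 0.17, adjusted p = 0.000511), among 3 of 10 in that list, beside 10.7% of all genes rising. DLL4 rose along sector numbers as well (1.45 ± 0.34, adjusted p = 0.00999), again among 3 of 10, beside 2.48% of all genes. DLK2 rose with the amnion score by 0.68 ± 0.08 (adjusted p = 6.18e-12), where 6 of 10 rose and 1 fell, beside 13.7% and 5.7% of all genes. Of 5 other HES and HEY genes tested, 1 rose with the endothelium score, beside 10.7% of all genes: HEYL (0.39 ± 0.11, adjusted p = 0.00441, limma). On the epiblast score 1 rose, HES6 (0.58 ± 0.12, adjusted p = 5.36e-05, limma), and 1 fell, beside 27.5% and 13.4% of all genes. With the mesenchyme score 2 rose and 1 fell, beside 15.3% and 18.3%. All slopes in this paragraph are from fits over single regions. With embryo slopes as units, limma called 0 of 15201 genes on the amnion score and 0 of 15216 along sector numbers. DLK2 on the amnion score and DLL4 along sectors therefore did not pass in that test. Other alternatives are not given for these genes. DLK2 was listed at 0 in 56 of 86 regions and DLL4 in 39 of 86.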

How the data were processed

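The authors deposited 1 table of TPM, which is per transcript length, with 17023 genes and a column for each of 86 regions. Fastp, HISAT2 and StringTie are named without versions, per the submitters' processing notes, and neither build nor annotation is stated in the sources used here. Coordinates are therefore left out. Columns sum to 495547 to 777987 TPM, so some of the genes normalized over are not analysed here; NRARP and HES3 are among the genes not analysed here. Each column was assigned to a label by its name, with 0 unmatched; 0 pairs of columns were identical.

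Values were tested as log2(TPM + 1) with limma 3.58.1 (moderated variances with a trend) in R 4.3.3, over 15216 genes, with Benjamini-Hochberg adjustment at 0.05. Score models left a list's own genes out of the genes tested. For the stage, regions were averaged per embryo (3 means, 1 residual degree of freedom, infinite prior degrees of freedom). Section, sector and score models used single regions: their SE and p take regions of 1 embryo as independent once the block is fitted, which makes p-values too small where they are not, and the 3 embryo slopes were also tested against 0. Section and sector numbers were scaled from 0 to 1. F tests compared slopes between embryos. Levels, correlations and pictures used pandas 2.3.3, numpy 2.4.6 and matplotlib 3.10.9. The model code was checked on simulated data with independent regions, which cannot check p-values where regions of an embryo are correlated.

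The members and lists were chosen with earlier results of these data known. Named genes are the 8 members, at most 6 called genes with the largest effects per comparison from 4 pathway lists, and the 4 genes most correlated with each member; HES5, RBPJ and MAML1 were added for their levels after these were seen. Alternatives were another pseudocount, other filters, quantile normalization, removal of 13 mitochondrially encoded genes, other units, covariates and blocks, and leaving out embryos or regions. Those leaving out E20 sections 1 to 5 or single regions, and those with a second score, were chosen after seeing the data. Sequences are not printed, and depth per region is unknown.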

Additional observations from a re-analysis of the deposited data

Results flagged for a closer look

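Slopes that differed between the 3 embryos (moderated F test on 2 differences, adjusted over all genes tested) were looked for in 9 comparisons. For the section trend they were DLL1 (F = 6.40), NOTCH1 (F = 6.04) and NOTCH3 (F = 7.74), 3 of 8 members beside 10.1% of all genes. Without the 3 E18 embryo 1 regions with trophoblast RNA, DLL1 had F = 3.92 (adjusted p = 0.137, limma). NOTCH1 slopes were 0.52 in the E20 embryo, against 0.03 and -0.60 in the E18 embryos. For the sector trend HEY1 differed (F = 14.8), beside 0.48% of all genes.

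On the epiblast score DLL1 (F = 6.77), NOTCH3 (F = 16.1), HES1 (F = 7.21) and HEY1 (F = 15.2) differed, beside 12.7% of all genes. DLL1 slopes were 0.70 in the E20 embryo, against -0.26 and -0.24 in the E18 embryos, and HES1 slopes were 0.60 in the E20 embryo, against -0.38 and -0.08 in the E18 embryos. On the streak score NOTCH1 differed (F = 8.62), with 0.17 in the E20 embryo, against -0.17 and -0.28 in the E18 embryos, beside 3.63% of all genes.

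On the yolk sac endoderm score DLL1 (F = 6.59), DLL3 (F = 11.6) and NOTCH3 (F = 25.8) differed, beside 13.4% of all genes. NOTCH3 had -0.99 in the E20 embryo, against 0.01 and 0.26 in the E18 embryos. The E20 embryo is the one that holds the yolk sac sections: the summed TPM of the yolk sac endoderm list ran from 17.1 to 161996 in its regions, against 18.04 to 6327 in E18 embryo 1 and 29.4 to 492 in E18 embryo 2. The part of this difference in the slopes was not tested.

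On the amnion score DLL1 (F = 6.55), DLL3 (F = 6.47) and NOTCH3 (F = 7.51) differed, beside 16.2% of all genes. DLL1 had 0.90 in the E20 embryo, against 1.39 and 0.25 in the E18 embryos, and DLL3 had 0.01 in the E20 embryo, against -1.34 and -1.03 in the E18 embryos. Groups held more than 10 regions, so single outlying regions were not tested.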

How the results depend on the processing

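No paired analysis was possible because region numbers follow accession order and pair nothing across embryos. Of the members' values under alternatives, 942 kept call and sign, 92 changed sign while called in neither, 130 lost the call, 55 gained one and 10 called values reversed. The other 16, stage differences against 1 E18 embryo, had no test, and 2 of them changed sign. Median shifts over all genes for the stage were -0.44 as reported, -0.95 with a pseudocount of 0.1, -0.56 without mitochondrially encoded genes and -0.01 after quantile normalization, which called 2 members as before.

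Members called for the stage (2 as reported) were 0 with medians over regions, with E20 section 6 or 7 alone and without E20 sections 1 to 5, and 4 with E20 section 1, 4 or 5 alone. The section trend (3) gave 2 with genes detected as a covariate, 0 with E20 sections 6 and 7 as a block of their own (separate blocks), with embryo slopes, with section means and without E20 sections 1 to 5, and 0 to 4 leaving out an embryo. The sector trend (1) gave 0 with embryo slopes, 2 without E20 sections 1 to 5, 2 without the 3 E18 embryo 1 regions with trophoblast RNA, and 0 to 2 leaving out an embryo. Differences among sections (3) gave 1 with genes detected as a covariate, 0 with separate blocks, 0 without E20 sections 1 to 5, and 0 to 3 leaving out an embryo.

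With embryo slopes as units the epiblast (4), mesoderm (4), yolk sac endoderm (4), amnion (7) and endothelium (2) scores gave 0 members and the streak score (3) gave 1. Over all genes tested, the same 5 scores gave 39, 2, 0, 0 and 45 genes and the streak score 65. The mesoderm score gave 2 after quantile normalization, with separate blocks and without E20 sections 1 to 5, and 2 to 4 leaving out an embryo. The yolk sac endoderm score gave 2 after quantile normalization and with genes detected as a covariate, 1 with separate blocks and without E20 sections 1 to 5, and 1 to 4 leaving out an embryo. The amnion score gave 4 after quantile normalization and with separate blocks, 3 without sector 4 of E20 sections 6 and 7, and 4 to 5 leaving out an embryo. The endothelium score gave 5 after quantile normalization, 4 with separate blocks, 5 without E20 sections 1 to 5, 0 with the mesenchyme score in the fit, and 0 to 5 leaving out an embryo. For the other alternatives of this section the share of all genes called is not given. A count that moved is therefore not read as particular to the members. The cause of these changes was not tested.

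Slopes that reversed were NOTCH3 on the epiblast score (-0.044 without E20 sections 1 to 5) and on the amnion score (-0.037 to 0.592 leaving out an embryo), and on the yolk sac endoderm score NOTCH3 (-0.848 to 0.117 leaving out an embryo, 0.092 without E20 sections 1 to 5), DLL1 (-0.683 to 0.098 leaving out an embryo, 0.063 with separate blocks, 0.027 without E20 sections 1 to 5) and HES1 (-0.504 to 0.065, 0.034 and 0.047 under the same 3). The positive values when leaving out an embryo, and the negative one on the amnion score, came without the E20 embryo. With unknown depth, a value of 0 in a region of 5 to 50 cells sets no limit on expression.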
